A study of Mus musculus with 6 samples.

Results

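The genes described here are 10 genes of iron storage, uptake and export and their regulators, *Fth1*, *Ftl1*, *Tfrc*, *Slc11a2*, *Steap3*, *Slc40a1*, *Aco1*, *Ireb2*, *Fbxl5* and *Ncoa4*. They were chosen by name for their known roles, with earlier results of these data known, and each is a row of the table of 55487 genes. Shares of the 10 genes set beside those of all tested genes are thus descriptions of a chosen list. All 10 passed the filter on low counts, among 14531 genes tested. The RNA came from mouse pulmonary artery smooth muscle cells (mPASMCs), the contractile cells of the vessel wall that are remodeled in pulmonary hypertension. Cells were transfected with a control siRNA (si-NC, 3 libraries, genotype given as Control) or with an siRNA against the long noncoding RNA *Snhg18* (si-*Snhg18*, 3 libraries, genotype given as *Snhg18* knockdown), and their mRNA was sequenced to find genes downstream of *Snhg18*. The study lists 1 siRNA sequence against mouse *Snhg18*, so effects of that siRNA on other RNAs and effects of losing *Snhg18* cannot be told apart. The cells came from a commercial supplier and were used at early passages. The strain and age of the animals they came from, the oxygen level in culture and how long after transfection RNA was taken are not given in the sources used here.

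The libraries held 18097718 to 25988746 counted reads, and 3 reads, taken as the floor, correspond to 0.115 to 0.166 CPM, a count scaled to the total of its library. *Snhg18* had 23.5, 22.4 and 22.2 CPM in si-NC 1, 2 and 3 and 10.6, 11.2 and 9.97 CPM in si-*Snhg18* 1, 2 and 3, so it was lower in every library of its knockdown. All 8 smooth muscle markers listed were above the filter, from *Acta2* at a mean of 867 CPM to *Des* at 11.6 CPM in si-NC. Their summed level was 1990 to 2130 CPM in si-NC and 1370 to 2080 CPM in si-*Snhg18*. *Tagln* was the only 1 of them with an edgeR adjusted p under 0.05 without, and 5 with, the repeat number as a block. These 5, *Tagln*, *Myh11*, *Cnn1*, *Myl9* and *Des*, were all lower in si-*Snhg18*. Of all tested genes 7.36% passed without and 27.2% with the block. The 4 fibroblast markers listed were also above the filter, at a summed 512 to 583 CPM in si-NC and 369 to 504 CPM in si-*Snhg18*. Libraries numbered 2 stood furthest from the others of their group. The counts of any 2 libraries of a group differed beyond sampling noise, with a chi-square per degree of freedom of 6.32 to 111.5, so no library was counted as a repeat of another. The labels do not say whether the libraries came from separate cultures, and the p-values then measure only the spread between these libraries, which may be technical.

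Cells take up transferrin-bound iron through the transferrin receptor, which *Tfrc* encodes. In the endosome a ferrireductase of the STEAP family (*Steap3*) reduces the iron, and the divalent metal transporter (*Slc11a2*) moves it into the cytosol. Surplus iron is stored in ferritin, a shell of heavy (*Fth1*) and light (*Ftl1*) subunits, or leaves the cell through ferroportin (*Slc40a1*). The iron regulatory proteins, encoded by *Aco1* and *Ireb2*, bind hairpins in mRNAs called iron-responsive elements when iron is scarce. Binding in a 5′ untranslated region (UTR) blocks translation, and binding in a 3′ UTR protects the mRNA from decay. *Fbxl5* encodes an iron-sensing ubiquitin ligase subunit that marks *Ireb2* protein for destruction, and *Ncoa4* encodes the receptor that carries ferritin to the lysosome. Much of this control acts on translation and on protein, which mRNA counts do not show.

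The iron-responsive elements are shown because the regulatory proteins act on mRNAs through them. The UTRs of annotated mouse transcripts (GENCODE, GRCm38) were searched on the transcript strand for a C, 5 bases, the loop CAGTGN and 5 more bases, with the 5 bases on either side of the loop able to pair, G with U included. Matches lay in the 5′ UTRs of *Fth1*, *Ftl1* and *Slc40a1* and in the 3′ UTR of *Tfrc*, which held 4. In each sequence, written 5′ to 3′ as DNA, the capitals mark the bulged C and the 6 bases of the loop.
*Fth1* 5′ UTR, chr19:9982732-9982761, plus strand: ttcctgCttcaaCAGTGCttgaacggaacc
*Ftl1* 5′ UTR, chr7:45459778-45459807, minus strand: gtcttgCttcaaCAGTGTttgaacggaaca
*Slc40a1* 5′ UTR, chr1:45925464-45925493, minus strand: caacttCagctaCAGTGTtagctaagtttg
*Tfrc* 3′ UTR, chr16:32631219-32631248, plus strand: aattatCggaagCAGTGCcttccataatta
*Tfrc* 3′ UTR, chr16:32631598-32631627, plus strand: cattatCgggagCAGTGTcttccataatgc
*Tfrc* 3′ UTR, chr16:32631663-32631692, plus strand: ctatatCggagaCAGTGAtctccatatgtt
*Tfrc* 3′ UTR, chr16:32631710-32631739, plus strand: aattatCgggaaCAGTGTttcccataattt

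The pattern is rare. It occurs in the 5′ UTR of 28 of 20831 genes (0.134%) and in the 3′ UTR of 127 of 20911 genes (0.607%). No match was found in the UTRs of *Slc11a2*, *Steap3*, *Aco1*, *Ireb2*, *Fbxl5* or *Ncoa4*, which says only that these letters are not in the annotated transcripts searched. *Epas1*, an mRNA known to carry such an element, had no match either. A gene without a match may therefore still carry an element that this pattern misses. A match is a description of the sequence and not a measurement of binding.

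After *Snhg18* knockdown, mRNA of both ferritin subunits, of the exporter *Slc40a1* and of the iron sensor *Fbxl5* rose. *Fth1* rose 1.48-fold, *Ftl1* 1.43-fold, *Slc40a1* 3.14-fold and *Fbxl5* 1.28-fold. The other 6 genes did not pass an adjusted p of 0.05 in edgeR's quasi-likelihood test. These 4 of 10 genes, all higher, stand beside 7.36% of all tested genes with such a call in either direction and 3.65% called higher and 3.71% called lower. At an unadjusted p under 0.05 there were 6 of the 10 genes against 24.9% of all tested genes. The median log2 fold change was 0.14 over the 10 genes and 0.0072 over all tested genes.

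Libraries of the 2 groups carry the same repeat numbers, and their deviations from the group means were correlated within each number. This was not specific to the number for 1 and 3. The deviations of si-NC 3 correlated at 0.497 with those of si-*Snhg18* 1, and those of si-NC 1 at 0.186 with those of si-*Snhg18* 3. Libraries numbered 2 correlated at 0.742 with each other and negatively with the other numbers. With the repeat number as a block, 7 of the 10 genes passed, 4 higher and 3 lower (*Tfrc*, *Slc11a2* and *Ireb2*), where 27.2% of all tested genes passed, 13.6% in each direction. Only *Slc40a1* had both an adjusted p under 0.05 and a change of at least 1.5-fold, in the fit without the block and in the fit with it. Genes past both limits made up 3.67% of the tested genes without the block and 10.1% with it. The groups did not overlap for 7 of the 10 genes, 5 higher and 2 lower, against 30.9% of all tested genes. With 3 libraries in a group, an exact two-sided permutation test of a single gene cannot give a p under 0.1. Leaving out the libraries numbered 2 of both groups kept the calls of *Fth1*, *Ftl1*, *Slc40a1* and *Fbxl5*, at edgeR adjusted p-values of 0.00229, 0.00260, 0.00155 and 0.00965. That fit has no block, was added after seeing the data and called 4020 of all genes, against 1069 with every library. Without si-NC 2 alone the 4 calls were lost (edgeR adjusted p = 0.0527, 0.0527, 0.0554 and 0.138), and 158 of all genes were called. In RNA from whole cultures, fewer cells that express a gene and less of its RNA per cell cannot be told apart.

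**Figure D1:**
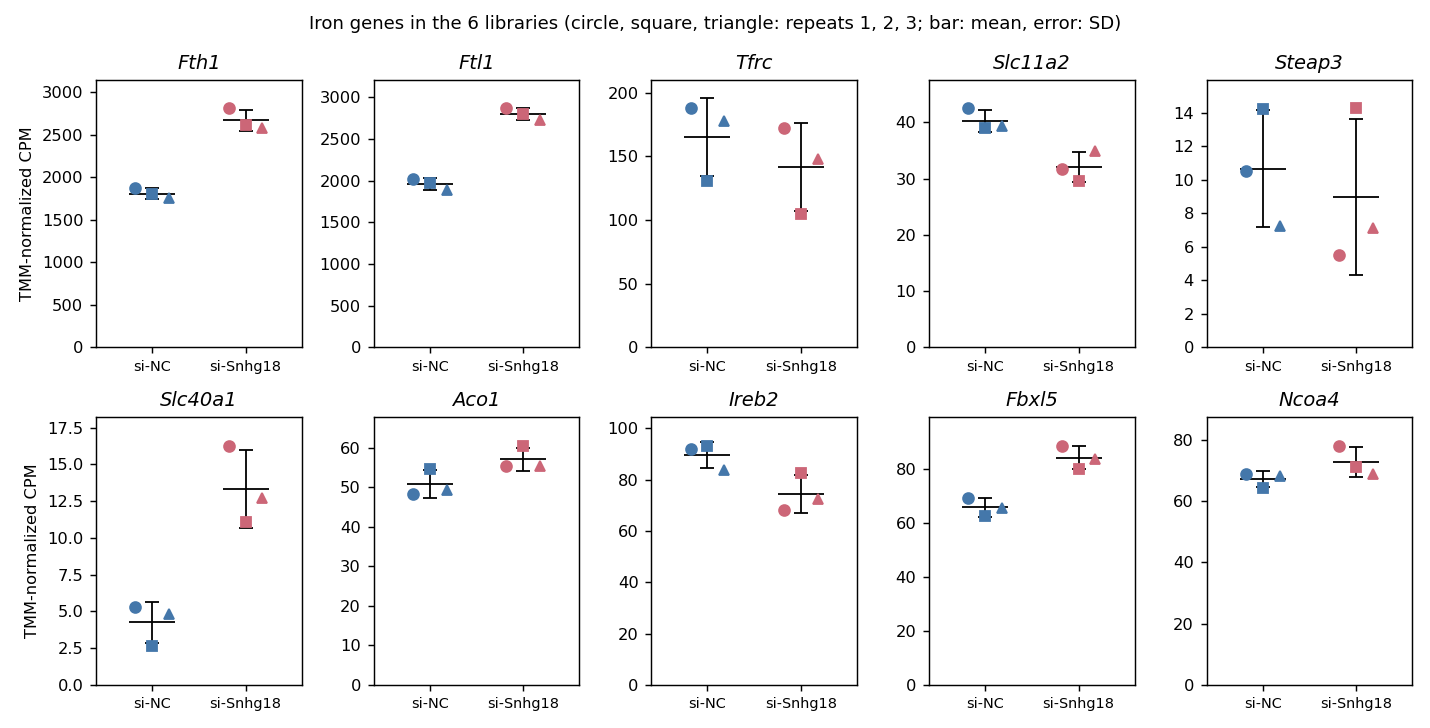
Level of each iron gene in the 6 libraries, in TMM-normalized CPM on a linear axis from 0, with si-NC in blue and si-*Snhg18* in red, a symbol for each repeat number, and the mean and SD of 3 libraries in black. *Fth1*, *Ftl1*, *Slc40a1*, *Fbxl5* and *Aco1* were higher in every si-*Snhg18* library than in any si-NC library, *Slc11a2* and *Ireb2* were lower, and *Tfrc*, *Steap3* and *Ncoa4* overlapped.

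Ferritin mRNA was by far the most abundant of the iron transcripts. *Fth1* (ENSMUSG00000024661, chromosome 19, 9980598 to 9985098, plus strand) encodes the heavy subunit, which oxidizes iron for storage. It had 1875, 1802 and 1753 CPM in si-NC 1, 2 and 3 and 2812, 2620 and 2585 CPM in si-*Snhg18* 1, 2 and 3. The groups lay well apart, and the lowest si-*Snhg18* library was above the highest si-NC library. The mean rose from 1810 ± 61.6 to 2672 ± 122 CPM (SD, n = 3), a log2 fold change of 0.56 with an SE of 0.07 and a 95% confidence interval of 0.40 to 0.72 (edgeR adjusted p = 0.0106). Within the same-numbered libraries the ratio was 1.5, 1.45 and 1.47.

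*Ftl1* (ENSMUSG00000050708, chromosome 7, 45457944 to 45459884, minus strand) encodes the light subunit, which helps the iron core form. Its levels were 2022, 1977 and 1889 CPM in si-NC 1, 2 and 3 and 2869, 2804 and 2735 CPM in si-*Snhg18* 1, 2 and 3. As with *Fth1*, no libraries overlapped. The mean rose from 1963 ± 67.7 to 2802 ± 67.2 CPM (SD, n = 3), a log2 fold change of 0.51 with an SE of 0.06 (edgeR adjusted p = 0.0111), and the ratio within same-numbered libraries was 1.42, 1.42 and 1.45. Reads of the ferritin genes together were 0.360 to 0.387% of all counted reads in si-NC and 0.536 to 0.557% in si-*Snhg18*.

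Without the block, the calls of the ferritin genes depended on which libraries were included. Without si-NC 1, si-NC 2, si-NC 3 or si-*Snhg18* 3, the edgeR adjusted p of *Fth1* was 0.0827, 0.0527, 0.0853 and 0.0800, while its log2 fold change stayed between 0.52 and 0.59. For *Ftl1* the corresponding values were 0.0839, 0.0527, 0.0853 and 0.0807, and its log2 fold change was 0.49 to 0.53. Without si-NC 1, si-NC 3 or si-*Snhg18* 3 no gene at all was called. In those fits the unadjusted edgeR p was 0.00073, 0.00099 and 0.00057 for *Fth1* and 0.00086, 0.0011 and 0.00070 for *Ftl1*. With the replicate block, both genes had an edgeR adjusted p under 0.05 in each of the 6 fits that left out 1 library.

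The ferritin genes have many near-identical copies in the mouse genome, and reads from such copies can be divided in a way that counts do not show. Of 14 other rows whose symbols begin with Fth or Ftl, 9 had no read in any library. *Ftl1-ps1*, annotated by its name as an *Ftl1* pseudogene, had 244, 225 and 236 reads in si-NC 1, 2 and 3 and 362, 397 and 428 reads in si-*Snhg18* 1, 2 and 3. That was 0.465 to 0.529% of the *Ftl1* reads in si-NC and 0.499 to 0.858% in si-*Snhg18*, so these rows held few counted reads. Copies under other symbols were not counted, and how reads shared between copies were divided is unknown.

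*Slc40a1* (ENSMUSG00000025993, chromosome 1, 45908068 to 45926523, minus strand) encodes ferroportin, the exporter of cellular iron. It was counted in 123, 65 and 113 reads in si-NC 1, 2 and 3 and in 411, 288 and 232 reads in si-*Snhg18* 1, 2 and 3. In CPM these were 5.31, 2.65 and 4.79 against 16.3, 11.1 and 12.7. It had the largest fold change of the 10 genes, and every si-*Snhg18* library exceeded every si-NC library. The mean rose from 4.25 ± 1.41 to 13.3 ± 2.65 CPM (SD, n = 3), a log2 fold change of 1.65 with an SE of 0.29 and a 95% confidence interval of 0.95 to 2.35 (edgeR adjusted p = 0.0265). The ratio within same-numbered libraries was 3.06, 4.17 and 2.66, and it varied more than that of the ferritin genes.

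Without the block, the call of *Slc40a1* was lost when si-NC 1, si-NC 2, si-NC 3, si-*Snhg18* 1 or si-*Snhg18* 3 was left out, at an edgeR adjusted p of 0.104, 0.0554, 0.113, 0.0748 and 0.122, with log2 fold changes of 1.40 to 1.84. No gene at all was called in the fits without si-NC 1, si-NC 3 or si-*Snhg18* 3. With the replicate block the call of *Slc40a1* was kept whichever library was left out.

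*Slc40a1* is also known to be abundant in macrophages, so macrophage and leukocyte markers were read beside it. Of 8 such markers 3 were above the filter, and 4 had at most 3 reads in every library. *Adgre1*, which encodes the macrophage antigen F4/80, had 0 reads in all 6 libraries, and *Ptprc*, the pan-leukocyte gene CD45, had 1 to 8 reads. *Csf1r* had 166, 123 and 134 reads in si-NC 1, 2 and 3 and 216, 73 and 89 in si-*Snhg18* 1, 2 and 3. *Cd14* had 722, 273 and 739 reads in si-NC and 1244, 402 and 842 in si-*Snhg18*, and it was the only marker of this list with an adjusted p under 0.05, with the replicate block (edgeR adjusted p = 0.00369). *Cd68*, a lysosomal gene of macrophages, had 71, 51 and 44 reads in si-NC and 89, 72 and 48 in si-*Snhg18*, with CPM ratios of 1.15, 1.33 and 1.41 within same-numbered libraries (edgeR adjusted p = 0.466, and 0.265 with the block). *Slc40a1*, *Cd14* and *Cd68* were thus higher in 3 of 3 same-numbered pairs, and *Csf1r* in 1 of 3. The summed level of the list was 18.3 to 41.8 CPM in si-NC and 21.5 to 61.4 CPM in si-*Snhg18*. The part of the macrophage and leukocyte markers in the *Slc40a1* result was not tested.

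The uptake genes did not pass the test without the block. *Tfrc* (ENSMUSG00000022797, chromosome 16, 32608920 to 32632794, plus strand), the transferrin receptor, had 188, 131 and 178 CPM in si-NC 1, 2 and 3 and 172, 105 and 148 CPM in si-*Snhg18* 1, 2 and 3. The groups overlapped, and the library numbered 2 was the lowest in both. The mean was 165 ± 30.4 CPM in si-NC and 142 ± 34.3 CPM in si-*Snhg18* (SD, n = 3), a log2 fold change of -0.22 with an SE of 0.21 and a 95% confidence interval of -0.73 to 0.29 (edgeR adjusted p = 0.558). Within same-numbered libraries *Tfrc* was lower in 3 of 3, with ratios of 0.918, 0.800 and 0.834, and with the replicate block the log2 fold change was -0.24 with an SE of 0.06 (edgeR adjusted p = 0.0293). That call was lost with DESeq2 and the block (adjusted p = 0.0658). It was also lost with edgeR and the block when a library numbered 2 or 3 was left out. The adjusted p was 0.114 without si-NC 2, 0.249 without si-NC 3, 0.116 without si-*Snhg18* 2 and 0.233 without si-*Snhg18* 3.

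*Slc11a2* (ENSMUSG00000023030, chromosome 15, 100387898 to 100425072, minus strand), the divalent metal transporter, had 42.5, 39.0 and 39.4 CPM in si-NC 1, 2 and 3 and 31.8, 29.6 and 35.0 CPM in si-*Snhg18* 1, 2 and 3. All si-*Snhg18* libraries were below all si-NC libraries. The mean was 40.3 ± 1.93 CPM in si-NC and 32.1 ± 2.69 CPM in si-*Snhg18* (SD, n = 3), a log2 fold change of -0.33 with an SE of 0.09 (edgeR adjusted p = 0.0877, and 0.0267 with the replicate block). Without the block DESeq2 gave an adjusted p of 0.0420. With the block the call was lost with DESeq2 (adjusted p = 0.0514) and, in edgeR, without si-NC 2 (adjusted p = 0.0754), si-NC 3 (0.111), si-*Snhg18* 2 (0.0857) or si-*Snhg18* 3 (0.0987).

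*Steap3* (ENSMUSG00000026389, chromosome 1, 120190757 to 120272705, minus strand), the endosomal ferrireductase, had 10.5, 14.3 and 7.24 CPM in si-NC 1, 2 and 3 and 5.50, 14.3 and 7.12 CPM in si-*Snhg18* 1, 2 and 3. The libraries numbered 2 were the highest of both groups and alike in level, and the groups overlapped. The log2 fold change was -0.25 with a 95% confidence interval of -1.23 to 0.73 (edgeR adjusted p = 0.748, and 0.293 with the replicate block), so these libraries would not show a moderate change of *Steap3* in either direction.

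**Figure D2:**
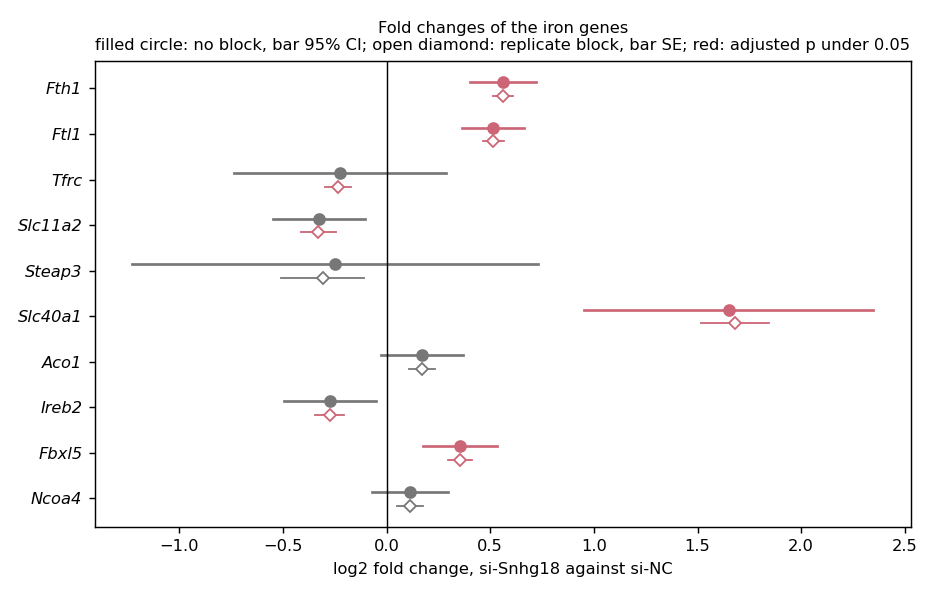
Log2 fold change of each iron gene, si-*Snhg18* against si-NC, without the block (filled circles, bars are 95% confidence intervals) and with the replicate block (open diamonds, bars are SE), in red where the adjusted p was under 0.05. The storage genes, *Slc40a1* and *Fbxl5* lie to the right of 0 in both fits, and *Tfrc*, *Slc11a2* and *Ireb2* lie to the left and are red with the block only.

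The iron regulatory proteins and the ligase subunit that acts on them gave small differences. *Aco1* (ENSMUSG00000028405, chromosome 4, 40143081 to 40198338, plus strand) encodes iron regulatory protein 1, which is the cytosolic aconitase when it carries an iron-sulfur cluster. It had 48.2, 54.8 and 49.2 CPM in si-NC 1, 2 and 3 and 55.5, 60.5 and 55.3 CPM in si-*Snhg18* 1, 2 and 3. The si-*Snhg18* libraries were all higher, by a margin smaller than the spread within si-NC. The mean was 50.7 ± 3.52 CPM in si-NC and 57.1 ± 2.95 CPM in si-*Snhg18* (SD, n = 3), a log2 fold change of 0.17 with an SE of 0.08 (edgeR adjusted p = 0.262, and 0.0877 with the replicate block).

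*Ireb2* (ENSMUSG00000032293, chromosome 9, 54863789 to 54912530, plus strand) encodes iron regulatory protein 2, which has no aconitase activity and is controlled by its destruction. It had 92.1, 93.2 and 83.9 CPM in si-NC 1, 2 and 3 and 68.2, 82.5 and 72.4 CPM in si-*Snhg18* 1, 2 and 3. The highest si-*Snhg18* library lay just below the lowest si-NC library. The mean was 89.7 ± 5.07 CPM in si-NC and 74.4 ± 7.37 CPM in si-*Snhg18* (SD, n = 3), a log2 fold change of -0.27 with an SE of 0.09 (edgeR adjusted p = 0.136, and 0.0270 with the replicate block). Without the block *Ireb2* passed when si-*Snhg18* 2 was left out (edgeR adjusted p = 0.0261) and when both libraries numbered 2 were left out (0.0170). These fits called 3282 and 4020 of all genes, against 1069 with every library. With the block the call of *Ireb2* was lost without si-NC 3 (edgeR adjusted p = 0.161) or si-*Snhg18* 3 (0.147) and with DESeq2 (adjusted p = 0.0505).

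*Fbxl5* (ENSMUSG00000039753, chromosome 5, 43744615 to 43821638, minus strand) is the gene of the iron-sensing ligase subunit. It had 69.2, 62.4 and 65.4 CPM in si-NC 1, 2 and 3 and 88.4, 80.0 and 83.5 CPM in si-*Snhg18* 1, 2 and 3. The groups did not overlap, and the ratio within same-numbered libraries was 1.28 in all 3. The mean rose from 65.6 ± 3.41 to 84.0 ± 4.25 CPM (SD, n = 3), with a log2 fold change of 0.36, an SE of 0.07 and a 95% confidence interval of 0.18 to 0.53 (edgeR adjusted p = 0.0406, and 0.00510 with the replicate block). Without the block the edgeR adjusted p was 0.147, 0.138, 0.160, 0.103 and 0.170 when si-NC 1, si-NC 2, si-NC 3, si-*Snhg18* 1 or si-*Snhg18* 3 was left out, and 0.0812 with no filter on low counts. Among these fits, those without si-NC 1, si-NC 3 or si-*Snhg18* 3 called no gene at all. With the block the edgeR adjusted p of *Fbxl5* was 0.0955 without si-NC 3 and 0.0839 without si-*Snhg18* 3. Annotated genes that overlap *Fbxl5* had at most 30 counted reads in any library, and how reads shared with them were divided is unknown.

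*Ncoa4* (ENSMUSG00000056234, chromosome 14, 32159865 to 32179855, plus strand), the receptor for ferritin turnover, had 69.1, 64.2 and 68.4 CPM in si-NC 1, 2 and 3 and 78.2, 71.3 and 68.8 CPM in si-*Snhg18* 1, 2 and 3. The groups overlapped, with si-*Snhg18* 3 below si-NC 1. The mean was 67.2 ± 2.65 CPM in si-NC and 72.7 ± 4.85 CPM in si-*Snhg18* (SD, n = 3), a log2 fold change of 0.11 with a 95% confidence interval of -0.07 to 0.30 (edgeR adjusted p = 0.406, and 0.237 with the replicate block).

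To compare levels between genes, CPM values were divided by the exon length in kilobases given in the table, which gives FPKM. In si-NC the order was *Ftl1* (2028 ± 69.9), *Fth1* (1212 ± 41.2), *Tfrc* (33.8 ± 6.22), *Fbxl5* (23.8 ± 1.23), *Ncoa4* (16.5 ± 0.652), *Ireb2* (15.6 ± 0.879), *Slc11a2* (13.3 ± 0.638), *Aco1* (13.2 ± 0.919), *Steap3* (8.29 ± 2.72) and *Slc40a1* (1.26 ± 0.417), all as mean FPKM with the SD of 3 libraries. The neighbours *Ncoa4* and *Ireb2* lay within their spread of each other, as did *Slc11a2* and *Aco1*. In si-*Snhg18*, *Fbxl5* (30.4 ± 1.54 FPKM) and *Tfrc* (29.0 ± 7.01 FPKM) were in the opposite order, within the spread of *Tfrc*, and *Aco1* (14.9 ± 0.770 FPKM) was above *Ireb2* (12.9 ± 1.28 FPKM) at the edge of their spread. *Slc11a2* (10.6 ± 0.891 FPKM), *Steap3* (6.96 ± 3.62 FPKM) and *Slc40a1* (3.96 ± 0.787 FPKM) were lowest there, and the wide spread of *Steap3* reached both of its neighbours. The range from the highest to the lowest gene was 1607-fold in si-NC and 731-fold in si-*Snhg18*. The table gives each of the 10 genes the length of a single annotated transcript. For *Fbxl5* (2762 against 4237 bases), *Slc11a2* (3025 against 4415) and *Steap3* (1288 against 5158) it is not the longest coding transcript, and the order of these genes depends on that choice. Divided by the longest transcript, *Fbxl5* was at 15.5 FPKM in si-NC, rank 6 instead of rank 4, and at 19.8 FPKM in si-*Snhg18*, below *Tfrc* in both groups. *Slc11a2* was then at 9.12 and 7.27 FPKM, and *Steap3* at 2.07 and 1.74 FPKM, which put *Steap3* and not *Slc40a1* lowest in si-*Snhg18*.

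**Figure D3:**
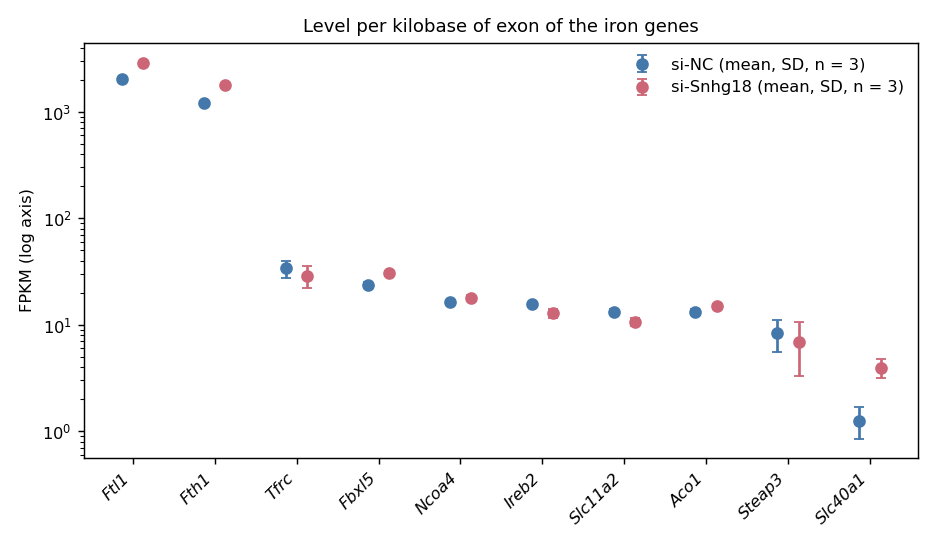
Level of the iron genes per kilobase of exon, in FPKM on a log axis, as mean and SD of 3 libraries, si-NC in blue and si-*Snhg18* in red, ordered by the si-NC level. Ferritin mRNAs stand at 1212 to 2895 FPKM, 7 genes lie between 6.96 and 33.8 FPKM, and *Slc40a1* is lowest in both groups with the lengths given in the table.

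Ratios within a library do not depend on normalization between libraries. There were 9.998, 13.8 and 9.87 *Fth1* reads for each *Tfrc* read in si-NC 1, 2 and 3 and 16.3, 25.1 and 17.4 in si-*Snhg18* 1, 2 and 3. For each 1000 *Tfrc* reads there were 28.3, 20.3 and 27.0 *Slc40a1* reads in si-NC and 94.5, 106 and 85.8 in si-*Snhg18*. Storage and export mRNA relative to the receptor were thus higher in every si-*Snhg18* library than in any si-NC library, and the library numbered 2 had the highest *Fth1* to *Tfrc* ratio of each group. The FPKM of *Ireb2* divided by that of *Aco1* was 1.27, 1.13 and 1.13 in si-NC and 0.816, 0.906 and 0.869 in si-*Snhg18*, so that *Ireb2* was above *Aco1* in each si-NC library and below it in each si-*Snhg18* library. The FPKM of *Fth1* divided by that of *Ftl1* was 0.601, 0.591 and 0.601 in si-NC and 0.635, 0.606 and 0.612 in si-*Snhg18*. The composition of ferritin mRNA thus moved far less than its amount. No ratio of 3 against 3 libraries can give an exact two-sided permutation p under 0.1.

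**Figure D4:**
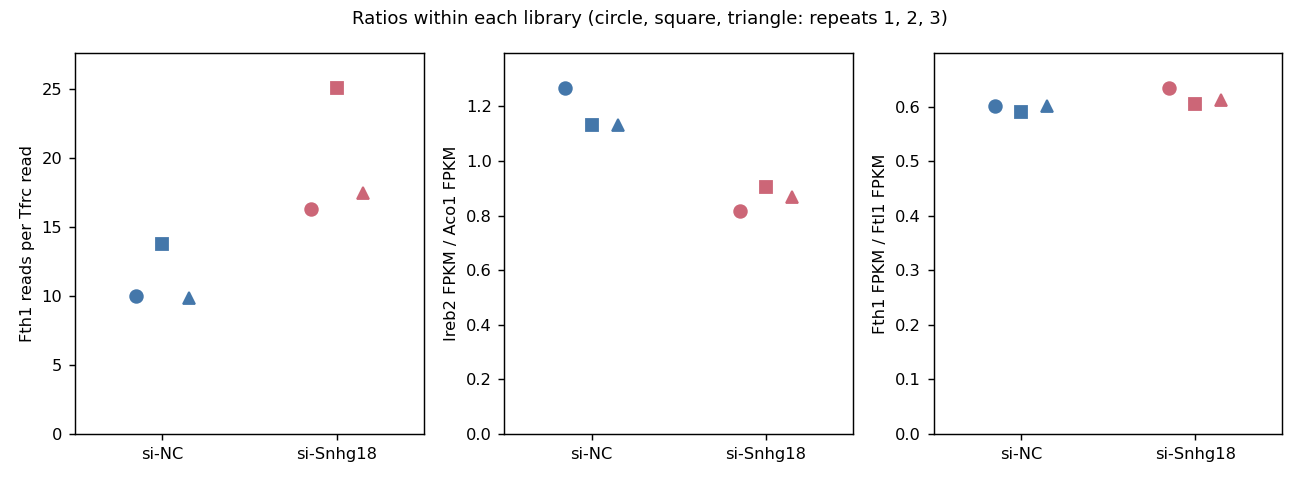
Ratios within each library on linear axes from 0, with a symbol for each repeat number: *Fth1* reads per *Tfrc* read, *Ireb2* FPKM over *Aco1* FPKM, and *Fth1* FPKM over *Ftl1* FPKM. *Fth1* per *Tfrc* read is 9.87 to 13.8 in si-NC and 16.3 to 25.1 in si-*Snhg18*, *Ireb2* over *Aco1* falls from above 1 to below 1, and the ferritin subunit ratio stays between 0.591 and 0.635.

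The genes most like the ferritin genes over the 6 libraries were found by the mean absolute difference of centred log2 CPM. Among the 3 genes nearest to *Fth1* were *Prdx1* (0.0226), a peroxiredoxin that reduces peroxides, and *Ftl1* (0.0252). Among the 3 nearest to *Ftl1* were *Mtr* (0.0179), the methionine synthase, and *Mms19* (0.0249), of the cytosolic iron-sulfur targeting complex. These are descriptions over 6 libraries of 2 groups, and the difference between the groups enters them.

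Other genes of iron handling were read from lists chosen by function. Of 69 genes 60 were tested, and 4 were higher and 2 lower at an edgeR adjusted p under 0.05, beside 7.36% of all tested genes. With the replicate block 10 were higher and 8 lower, beside 27.2% of all tested genes. These shares were near those of all tested genes, and the median log2 fold change of the 60 was 0.04. Without the block, 2 of the 60 were called when si-NC 2 was left out and 0 when si-NC 1, si-NC 3 or si-*Snhg18* 3 was left out, where 14, 13 and 11 had an unadjusted p under 0.05 in edgeR. Without si-*Snhg18* 2 there were 15 calls, and without both libraries numbered 2 there were 17. Those fits called 3282 and 4020 of all genes.

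Among 9 tested genes of uptake and iron reduction, 1 was called lower and none higher, beside 7.36% of all tested genes called. With the block 3 were called lower, beside 27.2%. *Steap2*, a plasma membrane metalloreductase, fell from 386 ± 8.46 to 251 ± 12.3 CPM (SD, n = 3), a log2 fold change of -0.62 (edgeR adjusted p = 0.00855). Its values were 376, 390 and 391 CPM in si-NC 1, 2 and 3 and 238, 261 and 255 CPM in si-*Snhg18* 1, 2 and 3, without overlap. Its relatives *Steap1* (log2 fold change -0.36, edgeR adjusted p = 0.0909, and 0.0139 with the block) and *Steap4* (log2 fold change -1.56, 0.345, and 0.0363 with the block) passed with the block and not without it. Both also passed without the block when the libraries numbered 2 of both groups were left out (edgeR adjusted p = 0.00945 and 0.00980), and *Steap1* passed in DESeq2 (adjusted p = 0.0461). With the block both were lost without si-NC 3 (edgeR adjusted p = 0.168 and 0.173) or si-*Snhg18* 3 (0.154 and 0.150). *Steap4* was at 0.110 to 2.74 CPM, near the floor in 2 libraries, and its size rested on single libraries. Without the block its log2 fold change was -3.64 without si-*Snhg18* 2, where it passed (edgeR adjusted p = 0.0178), and -1.10 without si-*Snhg18* 1. The endosomal sorting gene *Snx3* was at 143 ± 3.51 and 151 ± 3.82 CPM (adjusted p = 0.480). Of 4 tested genes of iron chaperones and ferritin turnover none passed in edgeR, with or without the block, and none had an unadjusted p under 0.05 without it. The iron chaperone *Pcbp1* was at 318 ± 13.8 CPM in si-NC and 306 ± 14.8 CPM in si-*Snhg18* (SD, n = 3), and *Herc2*, the ligase gene that acts on *Ncoa4* protein, was at 169 ± 9.56 and 183 ± 4.01 CPM.

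Of 4 tested genes of export and the hepcidin system, none passed in edgeR without the block, even at an unadjusted p under 0.05, and 1 in each direction passed with it. The multicopper ferroxidases, which oxidize the iron that ferroportin releases, went in different directions. *Heph* had 69.7, 49.8 and 76.4 CPM in si-NC 1, 2 and 3 and 112, 68.4 and 103 CPM in si-*Snhg18* 1, 2 and 3, overlapping between groups and higher in 3 of 3 same-numbered libraries (log2 fold change 0.53, edgeR adjusted p = 0.212, and 0.00259 with the block). *Cp*, ceruloplasmin, had 136 ± 23.2 CPM in si-NC and 111 ± 11.3 CPM in si-*Snhg18* (SD, n = 3, edgeR adjusted p = 0.239, and 0.0163 with the block). *Heph* kept its call with the block whichever library was left out, and without the block it passed when si-*Snhg18* 2 was left out (edgeR adjusted p = 0.0333). *Cp* was lost with the block without si-NC 2 (edgeR adjusted p = 0.0603), si-NC 3 (0.0991), si-*Snhg18* 2 (0.0667) or si-*Snhg18* 3 (0.0832).

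Of 17 tested genes of heme, 2 were called higher and none lower, beside 7.36% of all tested genes called. With the block 4 were called higher, beside 27.2%. *Slc48a1*, which moves heme out of lysosomes, rose from 164 ± 10.1 to 230 ± 12.2 CPM (SD, n = 3), a log2 fold change of 0.49 (edgeR adjusted p = 0.0198). *Abcg2*, an efflux pump that can carry heme and porphyrins, rose from 35.0 ± 8.35 to 61.5 ± 5.58 CPM (SD, n = 3), a log2 fold change of 0.81 (edgeR adjusted p = 0.0427). *Hmox1*, the inducible heme oxygenase and a gene of the oxidative stress response, was at 804 ± 77.5 CPM in si-NC and 830 ± 139 CPM in si-*Snhg18* (SD, n = 3), a log2 fold change of 0.05 with a 95% confidence interval of -0.29 to 0.38 (edgeR adjusted p = 0.868). *Hmox2*, the constitutive enzyme, had a log2 fold change of 0.32 (edgeR adjusted p = 0.0866, and 0.0128 with the block). It passed without the block in DESeq2 (adjusted p = 0.0390) and without si-*Snhg18* 2 (edgeR adjusted p = 0.0325), and was lost with the block without si-NC 3 (0.160) or si-*Snhg18* 3 (0.156). *Slc48a1* and *Abcg2* kept their calls with the block whichever library was left out.

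Of 24 tested genes of mitochondrial iron and iron-sulfur cluster assembly, 2 were called higher and 1 lower, beside 7.36% of all tested genes called. With the block 4 were called higher and 4 lower, beside 27.2%. *Mms19* rose from 38.5 ± 0.618 to 55.1 ± 0.898 CPM (log2 fold change 0.52, edgeR adjusted p = 0.0125). *Hspa9*, the mitochondrial chaperone that helps transfer clusters, fell from 542 ± 43.2 to 357 ± 42.4 CPM (log2 fold change -0.60, edgeR adjusted p = 0.0282). *Nfs1*, the cysteine desulfurase that supplies the sulfur, and *Nubp1*, of the cytosolic assembly machinery, had log2 fold changes of -0.43 and -0.58 and passed with the block and not without it (edgeR adjusted p = 0.0231 and 0.00840). *Iscu*, the scaffold, and *Iba57*, a late assembly factor, had log2 fold changes of 0.23 and 0.54 and likewise passed with the block and not without it (edgeR adjusted p = 0.0457 and 0.0206). The call of *Iscu* was lost in each of the 6 blocked fits that left out 1 library (edgeR adjusted p = 0.0766 to 0.200) and with DESeq2 and the block (adjusted p = 0.126). *Nfs1*, *Nubp1* and *Iba57* were lost with the block without si-NC 3 (edgeR adjusted p = 0.218, 0.105 and 0.147) or si-*Snhg18* 3 (0.209, 0.0894 and 0.141). Without the block these 3 genes passed when si-*Snhg18* 2 was left out (edgeR adjusted p = 0.0272, 0.0133 and 0.0381). *Hspa9* kept its call with the block whichever library was left out, and *Mms19* unless si-NC 3 was left out (edgeR adjusted p = 0.0598). Mitochondrial importer *Slc25a37* was at 184 ± 20.1 and 215 ± 45.2 CPM (edgeR adjusted p = 0.451).

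Among the other mRNAs known to carry an iron-responsive element, *Epas1*, the hypoxia-inducible factor 2 alpha gene, had no match in its annotated UTRs and was at 5.71 ± 0.290 CPM in si-NC and 9.16 ± 2.09 CPM in si-*Snhg18* (SD, n = 3, log2 fold change 0.68, edgeR adjusted p = 0.0880, and 0.0208 with the block). It passed without the block in DESeq2 (adjusted p = 0.0210), and with the block it was lost without si-NC 2 (edgeR adjusted p = 0.0675), si-NC 3 (0.145), si-*Snhg18* 2 (0.0981) or si-*Snhg18* 3 (0.140).

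**Figure D5:**
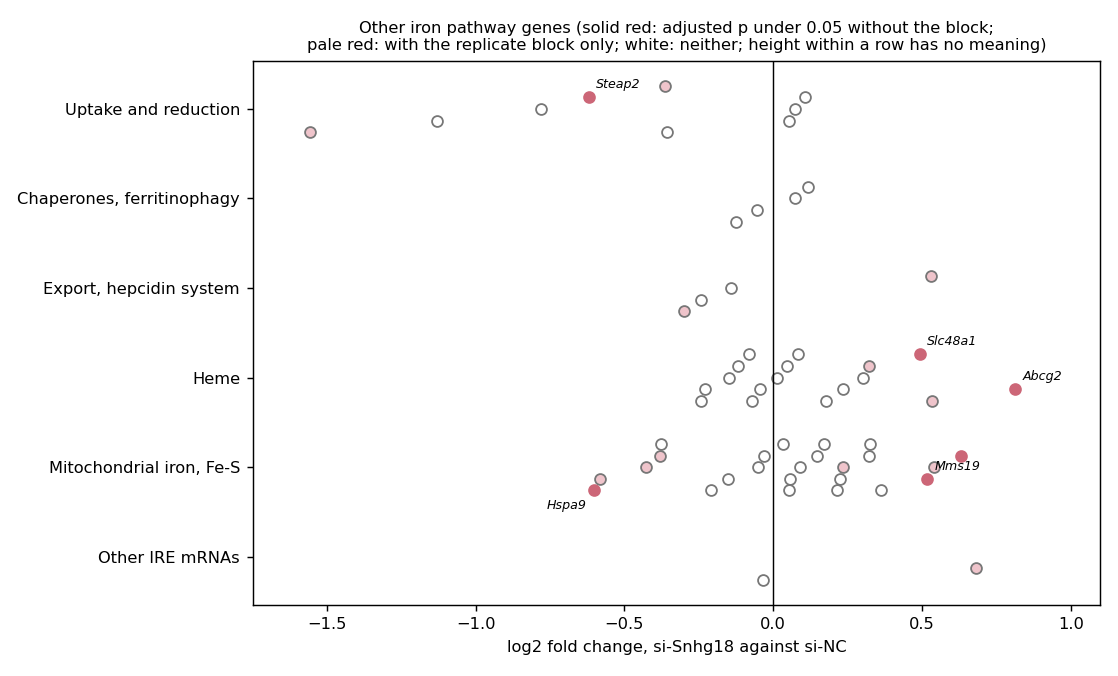
Log2 fold changes of the 60 other tested iron genes, si-*Snhg18* against si-NC, by functional list, with solid red for an edgeR adjusted p under 0.05 without the block, pale red with the replicate block only, and white for neither. *Steap2* and *Hspa9* fell and *Slc48a1*, *Abcg2* and *Mms19* rose, and most genes of each list lie between -0.5 and 0.5.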

How the data were processed

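mRNA of mPASMCs was sequenced in 6 libraries, 3 with si-NC and 3 with si-*Snhg18*, grouped by their sample labels. The authors prepared TruSeq Stranded mRNA libraries and deposited unnormalized counts of reads per gene, with exon lengths. The submitters' processing notes name HISAT2 and mm10. The counting program and strand setting are not given in the sources used here, so how reads shared by related or overlapping genes were divided is unknown.

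The deposited counts were tested with edgeR 4.0.16 (R 4.3.3). The filter was filterByExpr at a minimum count of 10, scaling was by TMM, and the 2 groups were contrasted by edgeR's quasi-likelihood test (glmQLFit, glmQLFTest). P-values were adjusted by the Benjamini-Hochberg method over the 14531 tested genes, and a gene was called at an adjusted p under 0.05. CPM values use TMM, and log2 CPM for the likeness between genes carries a prior count of 2. The common biological coefficient of variation was 0.218. Floors of 3 counts cover counting error only, as the reads carry no molecular identifiers. The code was tested on simulated counts with a log2 change of 1 in 200 genes. When no effect of the repeat number was simulated, 85.5% of them were recovered without and 84.5% with the block. When such an effect was simulated, 0% were recovered without and 79.5% with the block. Where genes were called, 7.57 to 8.65% of the calls were false.

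Repeat numbers come from the labels, which do not state a shared culture. Deviations from the group means correlated at 0.41, 0.742 and 0.359 for numbers 1, 2 and 3, each above 0.1, and the repeat number was taken to pair the libraries. The deviations of si-NC 3 correlated more strongly, at 0.497, with those of si-*Snhg18* 1. The planned fit had no block, and blocked values are given beside it where they change a call.

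The genes and lists were chosen with earlier results of these data known. The text names all 10 genes and *Snhg18*, and from each other iron list up to 3 called genes per direction and the 3 most abundant by FPKM. A few genes that this rule names are not reported here, though the counts of each list include them. Rows that begin with Fth or Ftl were counted. The marker genes *Adgre1*, *Ptprc*, *Csf1r*, *Cd14* and *Cd68* were named after their values were seen. Of the remaining marker lists, 4 of 6 endothelial, 0 of 6 erythroid, 1 of 5 epithelial and 4 of 4 fibroblast genes were tested, none was called without the block, 1 each of the endothelial, epithelial and fibroblast genes was called with it, and summed levels in si-NC and si-*Snhg18* were 12.4 to 14.0 and 13.3 to 15.4, 0.0424 to 0.259 and 0 to 0.317, 7.24 to 22.7 and 1.19 to 7.42, and 512 to 583 and 369 to 504 CPM. Other settings tried were RLE factors, library totals, DESeq2 1.42.0, a likelihood ratio test, limma-voom (limma 3.58.1), other filters, the replicate block, a 1.5-fold limit and leaving out each library. Leaving out both libraries numbered 2, the block without each library, with library totals and with the 1.5-fold limit were added after seeing the data.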

Additional observations from a re-analysis of the deposited data

How the results depend on the processing

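Over the 10 genes and 23 alternative fits, 190 of 230 log2 fold changes kept their direction and their side of the threshold, 21 lost and 17 gained a call, and 2 changed sign. *Steap3* did so, at 0.014 when si-NC 2 and 0.0088 when si-*Snhg18* 1 was left out, with a range of -0.77 to 0.014. Of 529 such values for the other named iron genes, 419 kept direction and side, 21 lost and 84 gained a call, and 5 changed sign. They were *Hmox1* at -0.030 without si-NC 2 and -0.077 without si-*Snhg18* 1 (range -0.077 to 0.16), and, with the replicate block, at -0.0231 without si-NC 1 and -0.0193 without si-*Snhg18* 1, and *Alas1* at -0.025 without si-*Snhg18* 1 (range -0.025 to 0.40). The cause of these changes was not tested.

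The count of called genes among the 10 was 4. It was 7 with the replicate block, 7 with the block and library totals, 4 (all higher) with the block in DESeq2, and 1 with a 1.5-fold limit, without and with the block. It was 0 to 5 without each library in turn, at an unadjusted p under 0.05 in 5 to 7 genes of the same fits, and 3 to 7 with the block. Of the other 60 iron genes 6 were called, against 10 with DESeq2, 18 with the replicate block, 16 with the block in DESeq2, 17 without both libraries numbered 2 and 18 with the block and library totals, and 0 to 15 without each library (unadjusted 11 to 27) or 5 to 20 with the block. Over all genes 1069 were called, against 2115 with DESeq2, 3954 with the replicate block, 3156 with the block in DESeq2, 4020 without both libraries numbered 2, 3892 with the block and library totals and 533 with a 1.5-fold limit, and 0 to 3282 without each library (unadjusted 2464 to 5749) or, with the block, 4517, 3983 and 584 without si-NC 1, 2 and 3 and 4584, 3483 and 874 without si-*Snhg18* 1, 2 and 3. The block changed no other call of the 10 genes than those given with their values. The fits without 1 library have fewer libraries, and with the block they also lose its same-numbered partner from the contrast. Without the block, leaving out si-NC 1, si-NC 3 or si-*Snhg18* 3 gave 0 calls over all genes, the 60 and the 10. Leaving out si-NC 2 also gave 0 calls among the 10. With library totals the split over all genes was 613 higher and 492 lower, against 530 and 539 with TMM, and the median log2 fold change of all genes was 0.0166 against 0.0072.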
